A study of Arabidopsis thaliana with 3 samples.

Results

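PUB23, PUB24 and PUB43 are Arabidopsis thaliana genes for plant U-box (PUB) ubiquitin ligases, 3 of 16505 measured genes, of which 1762 have a symbol other than their locus. They were described over 3 arrays and set beside the 7 other measured genes whose symbol is PUB plus a number. The 3 genes were picked with the values of these arrays in view, so their differences below describe the arrays and are not evidence gathered independently of that choice. The series asked how the peptide CEP1, which nitrogen-starved roots send to the shoot, and its receptor CEPR1 act on shoot vascular tissue. The arrays are Affymetrix Arabidopsis Gene 1.0 ST, hybridised with RNA from vascular strands collected by hand from cotyledons of seedlings grown for 8 days. The control array holds wild type on plain medium, the CEP1 array holds wild type on medium with 1 µM CEP1 throughout growth, and the cepr1-1 array holds the receptor mutant on plain medium.

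Each group is 1 array made from 200 cotyledons, so plants were pooled and no spread between samples was measured. No difference below has a p-value or a replicate check. The sources used here give no ecotype for the wild type or cepr1-1. CEPR1 has no measured gene under its name, so the genotype label was not checked on the arrays. All cotyledons were treated with cell wall enzymes and sonicated before dissection, on all 3 arrays. Of 21 phloem names listed, 3 were measured. The sugar exporter gene SWEET11 was 11.5 on the log2 scale on each array, the peptide gene CLE41 was 7.93, 8.31 and 7.96 on the control, CEP1 and cepr1-1 arrays, and OPS was 2.91 on all 3. None of 21 xylem and procambium names had a measured gene. The mesophyll genes RCA, SBPASE and PRK were 9.49, 7.55 and 5.74 on the control array, so genes known for green leaf cells also gave signal. In such tissue samples fewer cells of a type and less RNA per cell cannot be told apart.

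A ubiquitin ligase, or E3, brings a protein to be marked together with an E2 enzyme that carries activated ubiquitin, and chains of ubiquitin can send the protein to the 26S proteasome. In the PUB family the U-box is the domain that binds the E2, and in many members it is followed by armadillo repeats that bind other proteins. PUB22, PUB23 and PUB24 are close relatives known for damping immunity triggered by microbial patterns, and their transcripts are known to rise quickly after such patterns are sensed. PUB22 and PUB23 are also known for lowering drought tolerance. PUB43 is a close relative of SAUL1, a ligase named for its part in senescence and cell death.

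The values are log2 probe set values as deposited, and a difference of 1 is a 2-fold difference. The floor of a comparison was set at the array median of all measured genes, which a gene had to reach on whichever array read it brighter. These medians were 3.07 for the control, 3.07 for CEP1 and 3.11 for cepr1-1. A value below the median is not shown to be above background, since the table holds no background values. Levels are compared between arrays for the same gene only, because probe sets of different genes differ in brightness for the same amount of RNA.

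PUB23, PUB24 and PUB43 were lowest on the cepr1-1 array, and CEP1 left each within 0.15 of the control on the log2 scale. PUB24 (AT3G11840) was 7.55 in the control, 7.64 with CEP1 and 6.84 in cepr1-1. It was 1.63-fold lower in the mutant than in the control and 1.07-fold higher with CEP1. PUB23 (AT2G35930) was 6.37 in the control, 6.22 with CEP1 and 5.81 in cepr1-1. It was 1.47-fold lower in the mutant and 1.11-fold lower with CEP1, so the order of the wild-type arrays for PUB23 is opposite to that for PUB24. PUB43 (AT1G76390) read 3.25 on both wild-type arrays and 2.44 in cepr1-1. Its wild-type values are identical, and the mutant's value lies below the median of its array, so that its difference of -0.81 rests on dim signal.

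**Figure D1:**
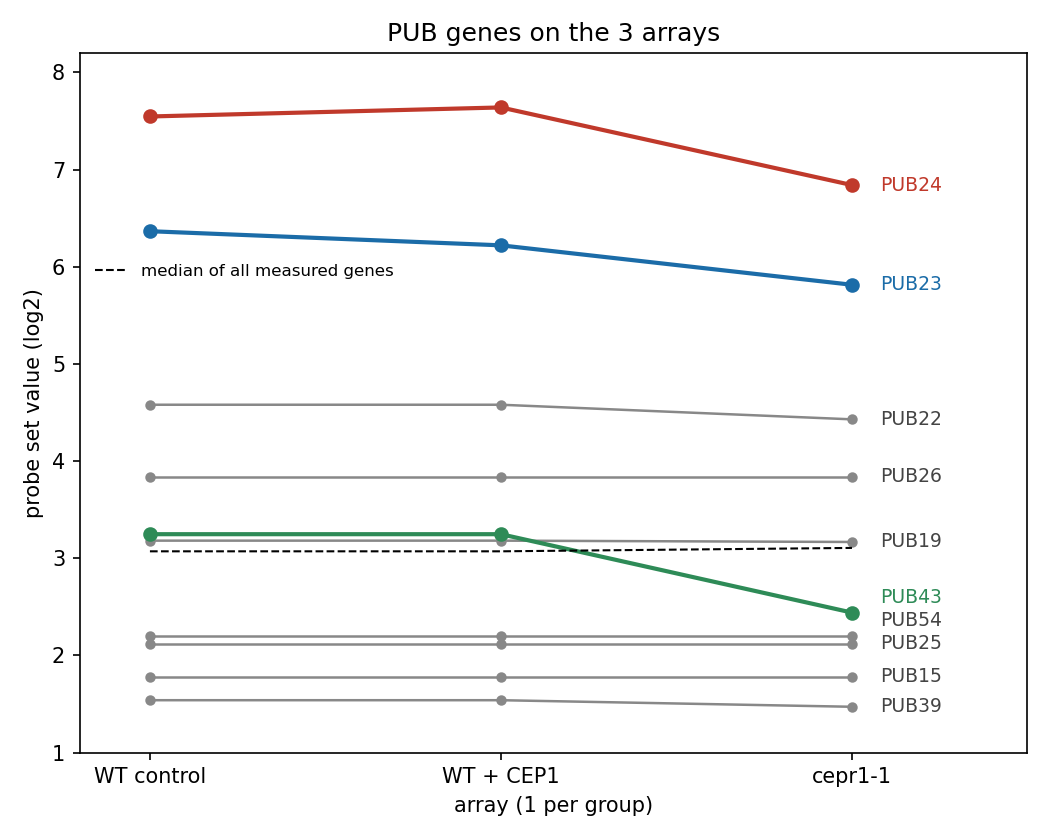
Probe set values (vertical axis, log2) of the 10 measured PUB genes on the 3 arrays (horizontal axis, 1 array per group), with PUB23, PUB24 and PUB43 in colour, the other 7 in grey and the median of all measured genes dashed. PUB24 and PUB23 stay well above the median and drop to 6.84 and 5.81 in cepr1-1, and PUB43 crosses the median from 3.25 to 2.44; heights are not comparable between genes.

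By size, PUB43 and PUB24 passed 1.5-fold lower in cepr1-1, a difference of 0.585 on the log2 scale, and PUB23 fell just short of it at -0.55. Among 8643 genes above the floor in this comparison, 2.14% were lower by 1.5-fold or more and 1.28% higher by as much. The 3 genes were chosen on these values, so nothing is read from their share. As a description, 121 of these genes were at least as low as PUB24 and 221 at least as low as PUB23; PUB43 is given no such place because its mutant value lies below the median. None reached 2-fold, which 0.567% of genes did on the lower side. When 16 was added to each value on the linear scale, which damps dim genes, the difference of PUB43 was -0.25 and PUB24 was the 1 PUB gene left past 1.5-fold.

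With CEP1 no PUB gene was 1.5-fold higher or lower. Among 8596 genes above the floor there, 1.57% were higher by 1.5-fold or more and 1.07% lower by as much. The difference of PUB24, 0.09, was matched or exceeded by 1034 genes on the higher side. That of PUB23, -0.15, was matched or exceeded by 604 genes on the lower side. In this comparison 66.8% of the genes above the floor were exactly equal on both arrays, PUB43 among them.

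**Figure D2:**
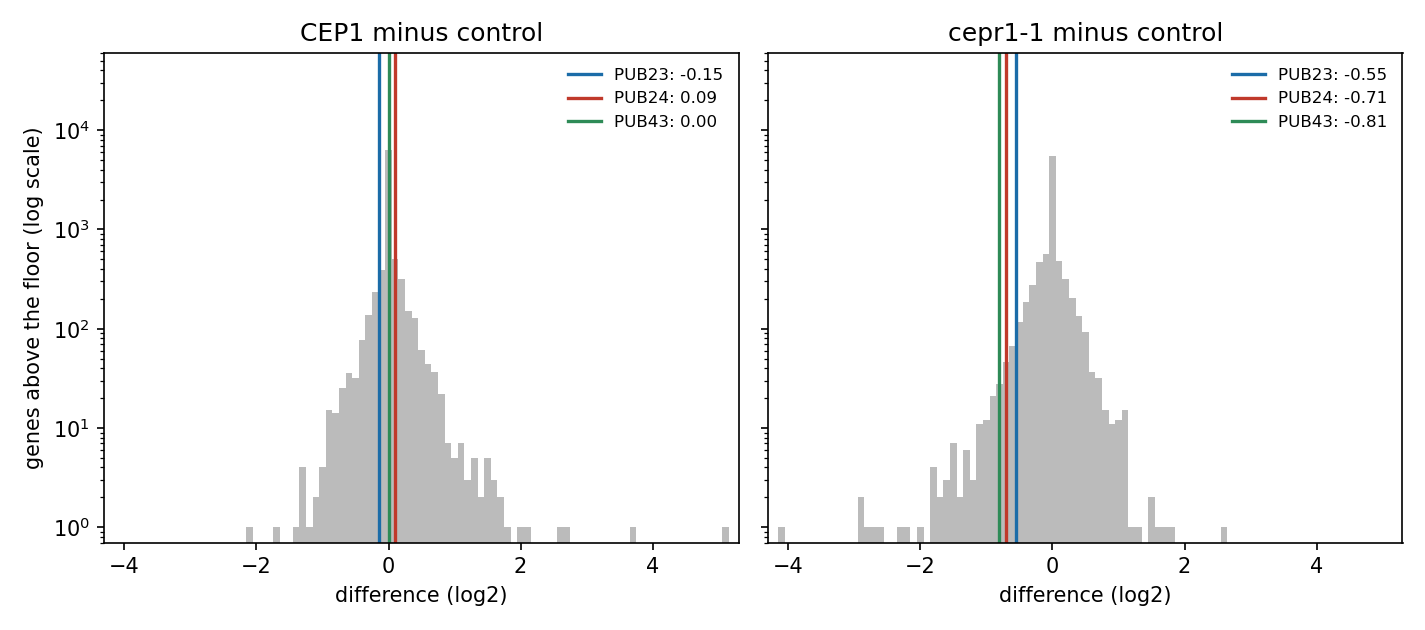
Distribution of log2 differences (horizontal axis) over genes above the floor (number of genes on a log axis, vertical), CEP1 minus control on the left and cepr1-1 minus control on the right, with PUB23, PUB24 and PUB43 as coloured lines. With CEP1 the lines stand at -0.15, 0.09 and 0, and in cepr1-1 they stand at -0.55, -0.71 and -0.81. These genes were chosen on these values, so nothing is read from where the lines fall. The PUB43 value in cepr1-1 lies below the median of its array.

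Set directly against each other, the CEP1 array was above the cepr1-1 array by 0.80 for PUB24, 0.81 for PUB43 and 0.41 for PUB23 on the log2 scale. PUB24 was thus 1.74-fold higher with CEP1 than in the mutant. No fold is given for PUB43, whose difference was 0.25 with a pseudocount of 16. No PUB gene was lower by 1.5-fold. In this comparison 3.74% of 8627 genes were higher by 1.5-fold or more with CEP1 and 1.95% lower. It is the arithmetic difference of the other comparisons and adds no separate evidence. The comparisons with the control use the same control array, so an error of that array would enter both.

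PUB43 has a further probe set that the platform annotation assigns to it together with AT1G76400, the neighbouring gene. That probe set read 4.94 on all 3 arrays. The sources used here do not say which of these genes it measures, so it was not used for PUB43. It does not show the drop seen in the probe set assigned to PUB43 alone. PUB43 also has 2 RefSeq transcripts where PUB23 and PUB24 have 1 each. PUB23 and PUB24 each have 1 named probe set, and signal shared between close relatives was not tested.

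Of 22 genes with a PUB symbol in RefSeq, 10 were measured under a name and 12 were not analysed here. The 10 fall into 6 that were above the floor in each comparison and 4 that were below the median on every array. PUB22, the relative closest in known function to PUB23 and PUB24, was 4.58 in the control, 4.58 with CEP1 and 4.43 in cepr1-1. It was 1.11-fold lower in the mutant, lower like PUB23 and PUB24 but by a smaller amount, and 1272 genes were at least as low. The difference between PUB22 and its relatives has no test with 1 array per group.

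PUB19, a ligase known for lowering responses to abscisic acid and drought, was 3.18, 3.18 and 3.17 on the control, CEP1 and cepr1-1 arrays. PUB26, known with PUB25 for marking the immune kinase BIK1, was 3.84 on all 3 arrays. PUB25 was 2.12, PUB15 1.78 and PUB54 2.20 on each array, and PUB39 was 1.54, 1.54 and 1.47. These 4 lie below the median everywhere, where an equal value does not show equal expression.

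Over the 10 PUB genes, 6 were lower in cepr1-1, 4 were equal to the control and 0 were higher, as deposited. Of all measured genes 17.8% were lower, 62.3% equal and the rest higher, and 3 of the 6 lower PUB genes are the ones picked on these values. After quantile normalization 9 were lower and 1, PUB26, was higher, and after median centring all 10 were lower, because these scalings shift the equal values slightly. Of the 7 that were not picked, the differences ran from -0.15 to 0. The median over the 10 was -0.04 in cepr1-1 and 0 with CEP1, where all measured genes had a median of 0 in both. The 3 picked genes are among the 10, so nothing is read from the -0.04 beside 0. Exactly equal values on all 3 arrays were found for 40% of the PUB genes and 54.6% of all measured genes. The PUB genes with equal values were PUB15, PUB25, PUB26 and PUB54. The 3 picked genes were chosen for values that differ between arrays, so nothing is read from the lower share. Equal values are thus common in the deposited data, and their cause was not tested.

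**Figure D3:**
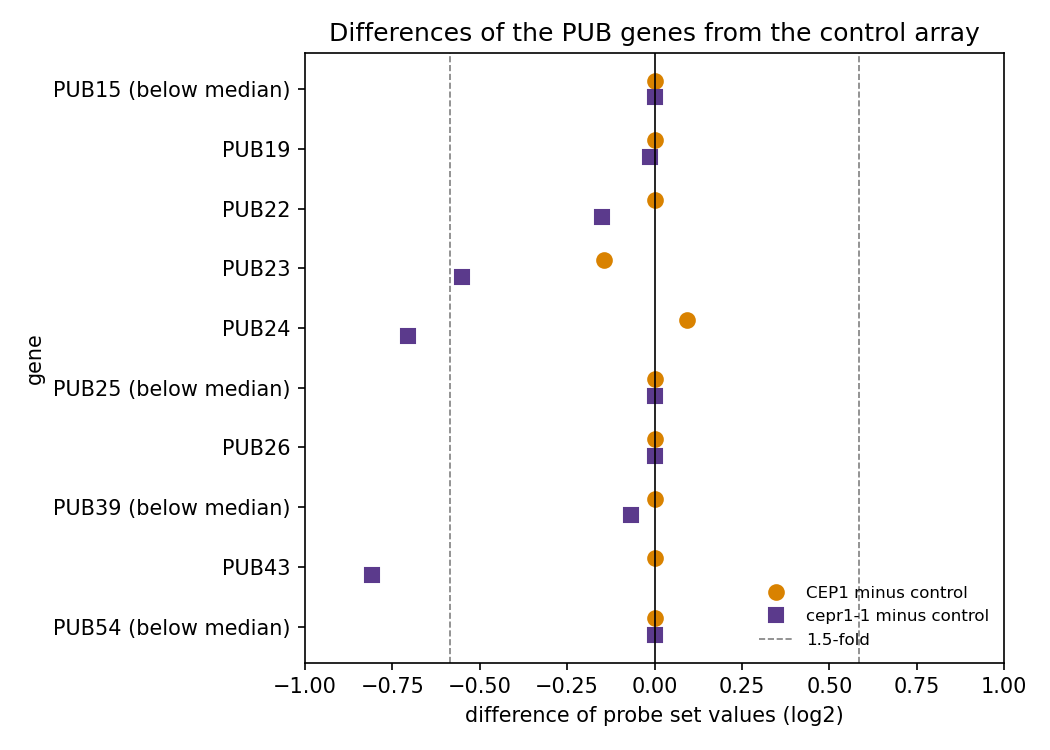
Differences from the control array (horizontal axis, log2) for the 10 measured PUB genes (vertical axis), circles for CEP1 and squares for cepr1-1, with 1.5-fold as dashed lines; genes below the median on every array are marked. PUB24 at -0.71 and PUB43 at -0.81 lie past 1.5-fold in cepr1-1, PUB23 lies at -0.55, and the other 7 lie between -0.15 and 0.

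The E2 enzymes hand ubiquitin to ligases such as the PUB proteins. Of 57 names of ubiquitin, E1 and E2 genes listed, 16 were measured, all of them E2 or E2-like genes, and 14 were above the floor. In cepr1-1, 1 of them was lower by 1.5-fold or more and 0 were higher, where 2.14% of all genes were lower. This was UBC30, at 8.23 in the control, 8.29 with CEP1 and 7.47 in cepr1-1, which is 1.69-fold lower in the mutant. With CEP1, 1 was higher by 1.5-fold or more and 0 were lower, where 1.57% of all genes were higher. This was UBC29, at 7.56 in the control, 8.44 with CEP1 and 7.23 in cepr1-1, which is 1.84-fold higher with CEP1. UBC30 thus had the PUB24 pattern, low in the mutant and near the control with CEP1, whereas UBC29 differed by 0.88 with CEP1 and -0.33 in cepr1-1 on the log2 scale.

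UBC36, an enzyme known for building ubiquitin chains used in DNA repair and signalling, differed by 0.19 with CEP1 and -0.43 in cepr1-1. UBC33 differed by 0.35 and -0.28, and UBC32, an enzyme of the endoplasmic reticulum, by 0.32 and -0.03. The median over the 16 was 0 with CEP1 and -0.01 in cepr1-1, and that of all measured genes was 0. Between the CEP1 and cepr1-1 arrays, 4 of the 14 were higher with CEP1 by 1.5-fold or more, where 3.74% of all genes were. They were UBC29 by 1.21, UBC30 by 0.82, UBC33 by 0.63 and UBC36 by 0.62 on the log2 scale, and with a pseudocount of 16 they were 2. Among the 16, 9 were higher with CEP1 than in cepr1-1 by any amount, 1 was lower and 6 were equal. Across all measured genes these shares were 17.4%, 21.7% and 60.8%. The list was chosen with earlier results of these data known, so nothing is read from these counts.

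Of 3 measured genes among 22 listed as possible partners of PUB proteins, UBC30 is given above. RPN12a, a proteasome subunit known as a target of PUB22 and PUB23, was 7.85, 7.93 and 7.62 on the control, CEP1 and cepr1-1 arrays, under 1.5-fold in each comparison. BIK1 was 6.39, 6.86 and 6.22, which is 1.38-fold higher with CEP1 and 1.13-fold lower in cepr1-1. RPN12b, the other measured gene of the proteasome list, was below the median on all 3 arrays. The U-box genes MAC3A and MAC3B, whose proteins work with the spliceosome, differed by 0.10 and 0 with CEP1 and by 0 and 0.18 in cepr1-1. Among RING-type ligases, BRH1 differed by 0 and -0.12, ATL63 was equal on all 3 arrays and ATL43 differed by 0 and 0.31.

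PUB23 and PUB24 are known to respond to microbial patterns and stress, and markers of such responses were read beside them. In the pattern-triggered immunity list 4 of 43 names were measured, and 0 passed 1.5-fold in either comparison with the control. Between the CEP1 and cepr1-1 arrays 1 did, BIK1, which was 1.56-fold higher with CEP1. Of all genes above the floor there, 3.74% were higher by 1.5-fold or more. Under quantile normalization, and with a pseudocount of 16, this count was 0. WRKY22, a transcription factor of early immunity, was 5.16, 4.86 and 4.95 on the control, CEP1 and cepr1-1 arrays. WRKY29 and the receptor gene EFR were equal on all 3 arrays at 4.91 and 2.84, the last below the median.

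Of 40 wounding, touch and jasmonate names, 3 were measured. Each was lower in cepr1-1 by less than 1.5-fold, where 24.7% of all genes above the floor were lower by any amount. The calmodulin-like genes CML37 and CML38 differed by -0.50 and -0.49, and STZ, a zinc finger gene induced by many stresses, by -0.48. With CEP1 they differed by -0.02, -0.0039 and 0.38. The summed level of the 3 genes was 9.39 in the control, 9.68 with CEP1 and 8.91 in cepr1-1 on the log2 scale, and none was below the median. The higher sum with CEP1 comes from STZ, since the other two genes were near the control. Their part in the low PUB values was not tested, and handling of single samples and genotype cannot be told apart with 1 array each.

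Of 34 abscisic acid and drought names, 6 were measured and went in both directions. KIN1 was 3.80, 2.91 and 2.48 on the control, CEP1 and cepr1-1 arrays, and COR15B was 2.84, 2.84 and 3.48. KIN2 differed by 0.30 and 0.17, COR15A by 0.38 and -0.16, and COR47 by 0.09 and -0.01 with CEP1 and in cepr1-1. The median over the 6 was 0.05 with CEP1 and -0.0033 in cepr1-1. In cepr1-1, 1 member (COR15B) was higher and 1 (KIN1) lower by 1.5-fold or more. Of all genes above the floor, 1.28% were higher and 2.14% lower by as much. KIN1 was also 1.85-fold lower with CEP1, where 1.07% of genes above the floor were lower by 1.5-fold or more. KIN1 and COR15B each reached the median on only 1 array, so these differences rest on dim signal. With a pseudocount of 16 each of these counts was 0.

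**Figure D4:**
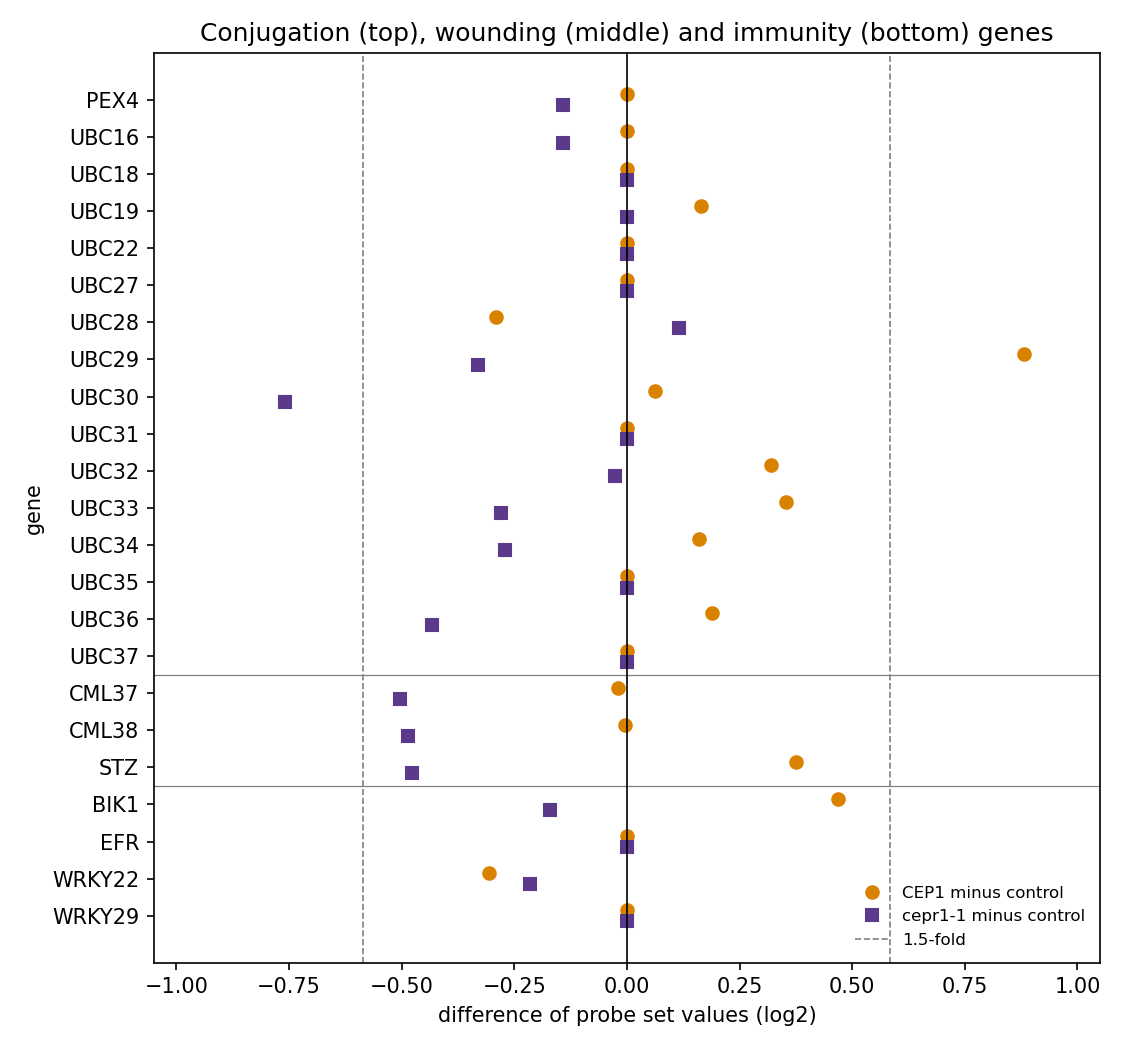
Differences from the control array (horizontal axis, log2) for the measured genes (vertical axis) of the ubiquitin conjugation list at the top, the wounding list in the middle and the immunity list at the bottom, circles for CEP1 and squares for cepr1-1, with 1.5-fold as dashed lines. UBC30 at -0.76 is past 1.5-fold in cepr1-1 and UBC29 at 0.88 with CEP1, and the 3 wounding genes lie between -0.50 and -0.48 in cepr1-1.

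Markers of leaf cells outside the vasculature were read on the same arrays. The mesophyll list, with 3 of 19 names measured, had a summed level of 9.91 in the control, 9.80 with CEP1 and 10.2 in cepr1-1 on the log2 scale. SBPASE, a Calvin cycle enzyme gene, was 0.69 higher in cepr1-1, RCA 0.21 higher and PRK 0.03 lower. SBPASE was the 1 marker of the list past 1.5-fold, where 1.28% of all genes above the floor were higher by as much. Of 25 epidermis and guard cell names 3 were measured. FMA, the guard cell gene also called FAMA, differed by -0.51 with CEP1 and 0 in cepr1-1, and SPCH and MUTE were below the median on all 3 arrays. The part of the tissue mix in the PUB values was not tested.

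The genes most like each PUB gene were found by the distance between pairs of differences, CEP1 minus control and cepr1-1 minus control, among 1102 other genes with a symbol that reached the median on at least 1 array. The distance is on the log2 scale, rests on 3 arrays and describes them only. Nearest to PUB24 were OPCL1, an enzyme of jasmonate synthesis, at 0.055 and UBC30 at 0.061. PUB43 came next at 0.14, followed by GRXC2, a glutaredoxin, and HAT2, a homeodomain transcription factor gene, at 0.16 each. OPCL1 was 8.14 in the control, 8.25 with CEP1 and 7.48 in cepr1-1.

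Nearest to PUB43 were HAT2 at 0.030, FHL, a gene of far-red light signalling, at 0.058 and UBC30 at 0.079, then the pectin methylesterase gene PMEPCRF at 0.13 and PUB24 at 0.14. HAT2 was 7.97, 7.96 and 7.13 on the control, CEP1 and cepr1-1 arrays. PUB24 and PUB43 are thus on each other's short lists, along with UBC30 and HAT2 on both. The members were picked on these same differences, so nothing is read from their closeness. With a pseudocount of 16 the difference in cepr1-1 was -0.25 for PUB43 and -0.64 for PUB24. The distances were not computed with a pseudocount. PUB23 lay farther from the other members, at 0.28 from PUB24 and 0.29 from PUB43. Its nearest genes were AILP1 at 0.094, the cellulose synthase-like gene CSLD2 at 0.11, VPS2.1, whose protein sorts membrane cargo, at 0.13, and CML37 and SDRB at 0.14 each. AILP1 was 9.23 in the control, 9.18 with CEP1 and 8.69 in cepr1-1.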

How the data were processed

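The authors deposited log2 values, 1 per probe set and array. The submitters' processing notes name Affymetrix Expression Console 1.3. The log2 scale was read from the range of the values. The sources used here do not state the background correction, normalization or probe summary. Of 38408 probe sets the platform annotation lists 17481, with 1 gene for 16722 and several for 759, which were not used. RefSeq names (TAIR10.1) were matched by gene ID for 16574 and by locus for 96, and 52 did not match. Where a locus had several probe sets the brightest by mean was kept, leaving 16505 genes. Python 3.11.15 and statsmodels 0.14.6 were used. With 1 array per group no test was run. The code for differences and 1.5-fold counts was tested on simulated data, with an assumed noise and changes planted in bright genes only. The noise of these arrays was not measured, so the simulation gives no error rate for the values reported here.

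The members and the 14 gene lists were chosen with earlier results of these data known. Lists were matched by RefSeq symbol, then unique synonym, and 48 different genes of 389 names were measured. The name FDH was left out because RefSeq gives it to another gene. Genes are named if they are PUB genes, among the 5 nearest to a member, among the 5 largest differences of a list, or cell type markers. AT1G76400 was named after its values were seen. No sequences or promoters were analysed here. The precision is limited by the number of arrays.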

Additional observations from a re-analysis of the deposited data

How the results depend on the processing

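PUB23, PUB24 and PUB43 were lower in cepr1-1 than in the control under quantile normalization and removal of a lowess trend. Removing that trend left PUB23 at -0.55, PUB24 at -0.70 and PUB43 at -0.81. It took away almost nothing, so this setting says little on the direction. The 3 genes were also lower under median centring and a pseudocount of 16, but these could not change the direction. A pseudocount keeps the sign of a difference, and median centring shifted this comparison by -0.035 for every gene. The mean of all probe sets of a gene could not change the values of these members, since each has 1 named probe set. With the pseudocount, PUB43 was -0.25 in cepr1-1 minus control and 0.25 in CEP1 minus cepr1-1, PUB23 was -0.45 in cepr1-1 minus control, and 1 PUB gene was past 1.5-fold lower in cepr1-1 and 1 higher in CEP1 minus cepr1-1, since a pseudocount damps dim genes. At a threshold of 2-fold both counts were 0. Quantile normalization moved PUB24 in CEP1 minus cepr1-1 to 0.66; the cause was not tested. Median centring put PUB23 at -0.59 in cepr1-1 minus control, past 1.5-fold, and so 3 PUB genes in place of 2 were lower by that size. A log2 shift under 0.1, or a count within 1.5 times, was taken as unmoved. This held for the other 85 values and counts of the 3 genes and the PUB family, that count of 3 included. Among the 85 are the values under the mean of probe sets, which could not move, and counts of 0 that stayed 0. The number 85 is therefore no measure of stability. Scaling moved the median of all genes by at most 0.035. No paired analysis was possible because each group has 1 array. The promoter motif counts planned were not run. No array can be left out, and noise between arrays, on which each difference depends, was not measured.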
